A study of Homo sapiens with 8 samples.

Results

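The protein genes of the cytosolic small ribosomal subunit, the 40S, were examined as 28 transcripts among the 57992 genes counted in RKO cells. The 28 genes run from RPSA and RPS2 to RPS29 and FAU, and they were picked by name with the comparison of A20 siRNA and control siRNA in these data already known. Their changes in that comparison are therefore given as a description, with no test. All 28 were found by symbol, and all 28 were among the 13412 genes that passed the filter on low counts. RKO, a human cell line established from a colon carcinoma, was sequenced as poly(A) RNA in 8 samples. Of these, 4 had received control siRNA and 4 an siRNA against A20, and each group was numbered from 1 to 4. Both groups were then given recombinant human wnt3a at 50 ng/mL for 24 hours, so unstimulated cells do not enter the comparison. The labels do not say whether replicates were separate cultures, and the SDs and p-values may cover technical spread only.

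The small subunit binds the mRNA and reads its codons while the large subunit joins the amino acids. Its proteins sit on a head, a platform and a body that together hold the mRNA channel, and they are made from some of the most abundant transcripts of growing cells. Most of these transcripts begin with a terminal oligopyrimidine (TOP) tract, a cytosine at the cap followed by a run of C and T, through which mTOR and the RNA binding protein LARP1 set how much of the mRNA is translated and how much is stored. A20, the product of TNFAIP3, is a ubiquitin-editing enzyme that restrains NFkB signaling, and part of the ubiquitin of the cell is made from a small subunit gene, RPS27A.

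The annotated start sites show what most of the 28 transcripts share, and which genes lack it depends on the exact base annotated. In the RefSeq promoter table (GRCh38.p14), 25 of the 28 genes had an entry, and RPS15A, RPS2 and RPS20 had none. A tract was counted where the annotated first base was C and at least 4 further pyrimidines (C or T) followed it, on the strand of the gene. It was present in 19 of the 25 genes (76%), with lengths from 6 to 14 bases. The lines below give 15 bases before the start and 15 from the start onwards for the genes described most closely further on, and the capitals mark the tract.
RPS27A (chr2:55232673-55232702, plus strand): tgcgcggcgttcttcCTTTTCgatccgcca
FAU (chr11:65122120-65122149, minus strand): cgccctcgcttcttcCTCTTTCTCgactcc
RPS29 (chr14:49598696-49598725, minus strand): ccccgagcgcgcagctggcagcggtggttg
RPS25 (chr11:119018329-119018358, minus strand): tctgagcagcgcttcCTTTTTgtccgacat
RPS28 (chr19:8321481-8321510, plus strand): tccccgaagcacgtgactcctctccgccag
RPS18 (chr6:33272060-33272089, plus strand): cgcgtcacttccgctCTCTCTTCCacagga
RPS12 (chr6:132814554-132814583, plus strand): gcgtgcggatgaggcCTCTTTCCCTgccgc
RPS10 (chr6:34426055-34426084, minus strand): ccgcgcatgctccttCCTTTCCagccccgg
RPSA (chr3:39406705-39406734, plus strand): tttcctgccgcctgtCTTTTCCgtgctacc
RPS21 (chr20:62387088-62387117, plus strand): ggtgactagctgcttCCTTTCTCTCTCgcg
RPS23 (chr5:82278340-82278369, minus strand): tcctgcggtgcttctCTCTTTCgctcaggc
RPS6 (chr9:19380222-19380251, minus strand): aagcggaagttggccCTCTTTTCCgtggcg
Of these 12 starts 10 carried a tract at the annotated base, and those of RPS29 and RPS28 did not. RPS27A had 3 annotated starts, and only the start shown has the tract.

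A gene was counted where any of its annotated starts had the tract at the annotated base. That held for 28 of 38 large subunit (60S) genes with an entry (73.7%) and 3 of 31 mitochondrial small subunit genes (9.68%). Of all 27305 genes in the table it held for 5.14%. The 19 small subunit genes with a tract had a median log2 fold change of -0.12, and the 6 without it (RPS15, RPS26, RPS28, RPS29, RPS4X and RPS7) had a median of -0.15. The difference between these medians was not tested, and without A20 siRNA replicates 3 and 4 their order turned, at -0.08 with the tract and -0.06 without it. Among tested genes that are not cytosolic ribosomal proteins, the 695 with a tract had a median of -0.01 and the 9107 without it 0.00. The motif is a match to letters at an annotated start, and starts used in RKO cells were not measured. Of the 6 small subunit genes without it at that base, RPS7, RPS15, RPS26 and RPS28 had a tract that started within 10 bases, and RPS29 and RPS4X did not. This looser match is common, and it was found in 37.9% of all 27305 genes in the table. Among the 25 small subunit genes with an entry it was found in 92%.

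Total counts on genes were between 21226451 and 34194273 per sample, and 3 counts corresponded to between 0.0877 and 0.141 CPM, the count set against the library size after TMM scaling. TNFAIP3, the target of the siRNA, was at 4.92, 5.83, 5.59 and 5.54 CPM in the controls and at 3.47, 3.01, 3.40 and 3.43 CPM in the A20 siRNA samples. It fell from 5.47 ± 0.388 to 3.33 ± 0.215 CPM (SD, n = 4 each), by 0.71 on the log2 scale (quasi-likelihood test of edgeR, Benjamini-Hochberg adjusted p = 0.00258). The groups did not overlap for it, and the exact two-sided permutation test gave p = 0.0286, the smallest that 4 against 4 samples allow. Among 8 markers of colon epithelium, EPCAM, KRT8, KRT18 and CDX2 passed the filter, whereas CDH1, KRT19 and KRT20 had no count in any sample. The summed level of the 8 markers was between 138 and 152 CPM per sample. The 7 markers of blood, endothelial and stromal cells had between 19 and 38 counts in all per sample, with PTPRC and CD3E at 0. Most of these counts were of CD68, the only marker of the 7 that passed the filter, at a mean of 1.06 CPM. The libraries of control replicate 4 and of A20 siRNA replicates 3 and 4 stood apart in the small subunit genes, and changes are given further on with and without A20 siRNA replicates 3 and 4.

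All but 1 of the 28 transcripts had a lower fitted level with A20 siRNA, by small amounts. The log2 fold changes were between -0.33 for RPS23 and 0.01 for RPS2, with standard errors from 0.0228 to 0.0775. Their median was -0.13, against 0.00 for all 13412 genes tested, of which 48.4% were below 0. At an adjusted p-value under 0.05, 7 of the 28 were lower, where 0.611% of all tested genes were lower and 1.25% were called in either direction. They were RPS12, RPS14, RPS18, RPS19, RPS23, RPS27A and RPS29. None of the 28 was higher at that threshold (0.634% of all genes) in edgeR, DESeq2 or limma-voom, and 0 had a higher level at an unadjusted p under 0.05 in edgeR while 24 had a lower level. Over all tested genes 7.37% were lower and 8.81% higher at that unadjusted threshold. For 7 genes (RPS7, RPS12, RPS18, RPS19, RPS20, RPS27A and RPS29) the highest A20 siRNA sample was below the lowest control, a pattern found in 3.9% of all tested genes, and for 0 genes the groups were separated the other way (3.71% of all genes). Since the genes were chosen with this comparison in view, nothing is read from these counts.

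**Figure D1:**
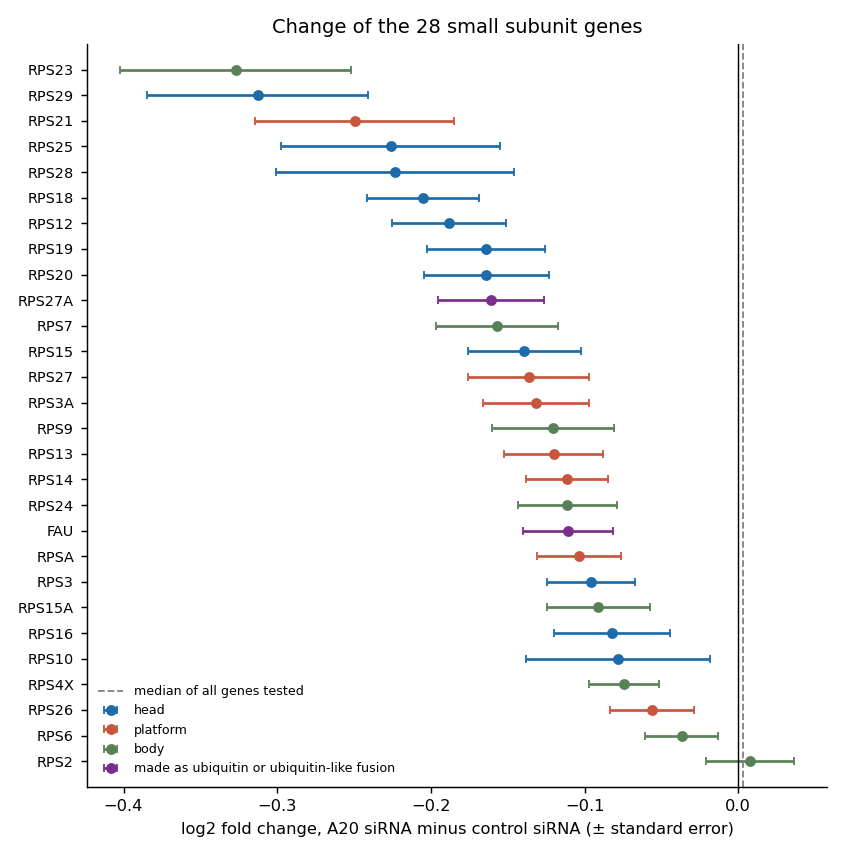
The log2 fold change of A20 siRNA minus control siRNA (x axis) is plotted for each of the 28 genes, as the fitted value with its standard error, coloured by place in the subunit. The points run from -0.33 for RPS23 to 0.01 for RPS2, and all except RPS2 lie left of the dashed line, the median of all genes tested.

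The counts of genes at the threshold rested on single libraries, whereas the sign of each log2 fold change other than that of RPS2 did not. Without control replicate 2, control replicate 4 or A20 siRNA replicate 3, 0 of the 28 genes were lower at the adjusted threshold, and without A20 siRNA replicate 4 or control replicate 3 the number was 1 and 3. Without control replicate 1 it was 21, and without A20 siRNA replicate 1 or 2 it was 16. With the replicate number as a block it was 19. DESeq2 gave 8 genes, of which 3 were among the 7 of edgeR. The number of lower genes among all those tested, 82 with all samples, moved in the same way. It was 430 without control replicate 1, and 151 or 154 without A20 siRNA replicate 1 or 2. With the block it was 212, and in DESeq2 122. In each of the other fits without a single sample it was between 6 and 26. Across the fits that left out a single sample the median log2 fold change stayed between -0.16 and -0.10. It was -0.07 without both A20 siRNA replicates 3 and 4, and -0.08 without both samples numbered 4, with 0 of the 28 genes at the threshold in either fit. In these 2 fits 0.0578% and 0.0739% of all tested genes were lower. These last 2 fits were added after seeing the data.

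Counts on the 28 genes made up 1.74%, 1.81%, 1.77% and 1.87% of all gene counts in control replicates 1 to 4, and 1.71%, 1.74%, 1.62% and 1.60% in A20 siRNA replicates 1 to 4. A20 siRNA replicate 2 lay just above control replicate 1, so the groups overlapped, and the A20 siRNA sample was the lower of each same-numbered pair. The group values were 1.80% ± 0.0590 and 1.67% ± 0.0699 (SD, n = 4 each), a difference of -0.13 percentage points that was -0.07 without A20 siRNA replicates 3 and 4. In these bulk samples, fewer cells rich in such transcripts and less of them per cell cannot be told apart. The replicate numbers were not taken to pair the samples, and number 4 sets the control with the highest share beside the A20 siRNA sample with the lowest. Set side by side by number, the median difference of the 28 genes in log2 CPM was -0.04 for both replicates 1 and 2, -0.16 for replicate 3 and -0.28 for replicate 4. The number of genes lower in the A20 siRNA sample was 21, 25, 27 and 28 in that order.

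The spread within a group was of the same size as the difference between the groups. Control replicate 4 was above control replicates 1, 2 and 3 in all 28 genes, with median differences of 0.13, 0.07 and 0.10 on the log2 scale. A20 siRNA replicates 3 and 4 differed from replicate 1 by medians of -0.13 and -0.15, with 6 and 3 genes above it. Replicate 4 differed from replicate 3 by a median of -0.01. The low values were thus those of A20 siRNA replicates 3 and 4, while replicates 1 and 2 lay close to the controls.

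**Figure D2:**
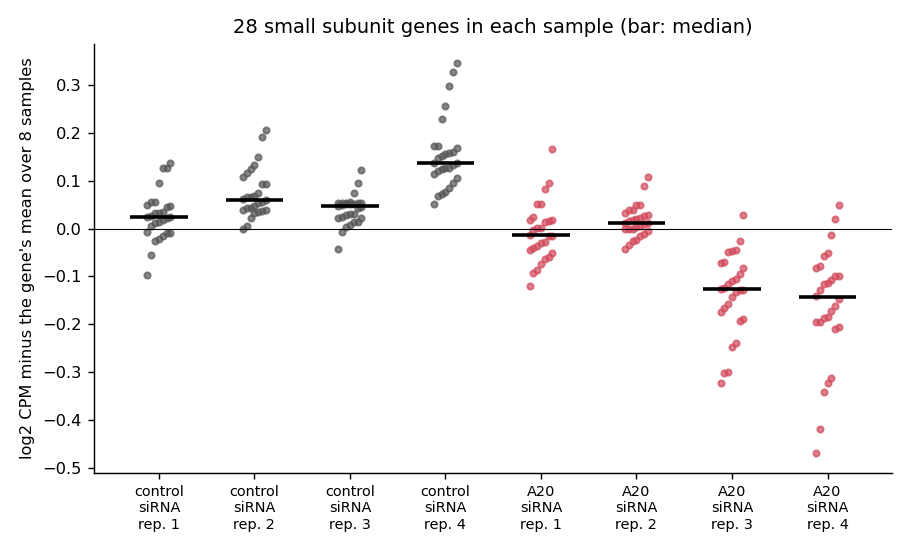
Each point is a small subunit gene in a sample, as its log2 CPM minus the mean of that gene over the 8 samples (y axis), and the bar is the median of the 28 genes. Control replicate 4 sits highest, A20 siRNA replicates 3 and 4 sit lowest, and A20 siRNA replicates 1 and 2 lie near 0.

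Without A20 siRNA replicates 3 and 4 the log2 fold changes of the genes described next were -0.17 for RPS23, -0.13 for RPS29, -0.12 for RPS18, -0.11 for RPS12 and -0.09 for RPS27A and RPS25. They were -0.08 for RPS21, FAU and RPSA, -0.04 for RPS28 and RPS6, -0.03 for RPS10 and -0.01 for RPS2. The value of RPS2 was thus below 0 in that fit, and that of RPS6 was as in the fit of all samples.

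RPS27A and FAU are translated as fusion proteins, the former with ubiquitin and the latter with the ubiquitin-like protein FUBI, which are cut off to release the ribosomal part. RPS27A (ENSG00000143947, chr2:55231903-55235853 on GRCh38) was at 641, 657, 637 and 676 CPM in control replicates 1 to 4 and at 624, 606, 564 and 539 CPM in A20 siRNA replicates 1 to 4. All A20 siRNA samples were below all controls, the closest being replicate 1. Its means were 653 ± 18.0 and 583 ± 38.9 CPM (SD, n = 4 each), and its log2 fold change was -0.16 (standard error 0.03). FAU (ENSG00000149806, chr11:65120630-65122177) was at 265, 269, 271 and 283 CPM with control siRNA and at 245, 269, 249 and 244 CPM with A20 siRNA. Its groups overlapped through A20 siRNA replicate 2, which reached the control range. The log2 fold change of FAU was -0.11 (standard error 0.03), and 17.2% of the exon bases of its main transcript are shared with SYVN1 on the same strand.

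Head proteins had a median of -0.16 over 11 genes, all below 0. Of these genes 4 were lower at the threshold (0.611% of all tested genes). For 5 the groups did not overlap, with A20 siRNA the lower (3.9% of all tested genes). Without A20 siRNA replicates 3 and 4 their median was -0.07, against -0.08 for the platform, -0.05 for the body and -0.08 for the fusion genes. RPS29, a zinc-binding protein of the head (ENSG00000213741, chr14:49570984-49599164), was at 221, 231, 216 and 242 CPM with control siRNA and at 200.4, 216, 162 and 151 CPM with A20 siRNA. The A20 siRNA samples fell into a pair near the controls, replicates 1 and 2, and a pair well below them, replicates 3 and 4. The means were 228 ± 11.4 and 182 ± 30.5 CPM (SD, n = 4 each). On the log2 scale the change was -0.31 (standard error 0.07), and it lay between -0.40 and -0.24 with any single sample left out, and at -0.13 without A20 siRNA replicates 3 and 4. RPS29 has the shortest coding sequence of the 28, at 168 bases, and its annotated start lacks the TOP tract.

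RPS25, which lies near the exit site of the transfer RNA (ENSG00000118181, chr11:119015712-119018691), was at 131, 124, 115 and 149 CPM with control siRNA and at 126, 118, 100.1 and 95.7 CPM with A20 siRNA. The groups overlapped, with control replicate 3 below A20 siRNA replicates 1 and 2. Its log2 fold change was -0.23 (standard error 0.07), and it was -0.16 without control replicate 4. RPS28, a small protein at the mRNA exit (ENSG00000233927, chr19:8321158-8323340), was at 208, 215, 209 and 248 CPM with control siRNA and at 226, 199, 164 and 159 CPM with A20 siRNA. A20 siRNA replicate 1 exceeded control replicates 1 to 3, and its log2 fold change of -0.22 (standard error 0.08) was -0.16 without A20 siRNA replicate 4. Some exon bases are shared with genes on the other strand for both, 8.70% with CENATAC for RPS25 and 27.4% with KANK3 for RPS28, and the strand setting of the counting is not given in the sources used here.

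RPS18, which contacts the large subunit across the top of the head (ENSG00000231500, chr6:33272075-33276511), was at 1042, 1099, 1056 and 1117 CPM with control siRNA and at 992, 995, 877 and 876 CPM with A20 siRNA. The groups did not overlap. Its log2 fold change was -0.21 (standard error 0.04), which leaves 86.7% of the control level. RPS12, a protein of the beak of the head (ENSG00000112306, chr6:132814569-132817564), was at 737, 785, 747 and 812 CPM with control siRNA and at 706, 720.2, 642 and 634 CPM with A20 siRNA. Here too all A20 siRNA samples were below all controls, and the log2 fold change was -0.19 (standard error 0.04). The gene holds 3 small nucleolar RNA genes within its introns or exons (SNORA33, SNORD100 and SNORD101).

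RPS10, a head protein that is ubiquitinated when ribosomes collide (ENSG00000124614, chr6:34417454-34426069), was by far the least counted of the 28, at 13.0, 13.3, 13.0 and 13.6 CPM with control siRNA and at 12.2, 13.8, 12.4 and 11.5 CPM with A20 siRNA. The groups overlapped, and the log2 fold change of -0.08 had a standard error of 0.06. Of the exon bases of its main transcript 84.0% are also annotated to the read-through gene RPS10-NUDT3 on the same strand, which had 0 counts in all 8 samples. The low level is thus a count of uniquely assigned reads, and whether reads from the shared bases were set aside was not tested. Of the other head genes, RPS19, which is mutated in Diamond-Blackfan anemia, and RPS20 had values of -0.16 each with no overlap of the groups. RPS15, RPS3 and RPS16 had log2 fold changes of -0.14, -0.10 and -0.08, and their groups overlapped.

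**Figure D3:**
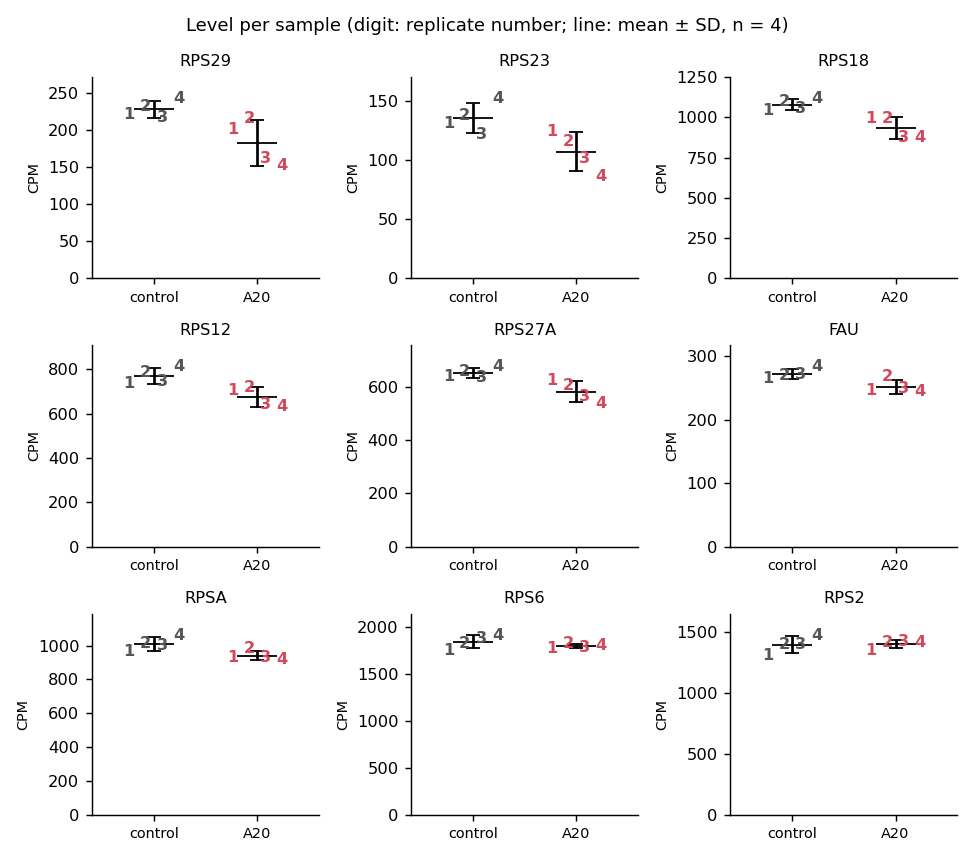
Levels in CPM (y axis, from 0) of 9 genes with control and A20 siRNA, where each digit is a sample at its replicate number and the line with its bar is the mean ± SD (n = 4). RPS29, RPS18, RPS12 and RPS27A have no overlap between the groups, with A20 siRNA replicates 3 and 4 lowest, while RPS6 and RPS2 are at like levels in both.

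The 7 platform proteins had a median log2 fold change of -0.12, all below 0. RPS14 was the only gene of them lower at the threshold (0.611% of all tested genes). RPSA, known also as a laminin receptor precursor (ENSG00000168028, chr3:39406716-39426255), was at 964, 1012, 1003 and 1062 CPM with control siRNA and at 932, 981, 927 and 920.1 CPM with A20 siRNA. Only A20 siRNA replicate 2 reached the control range. The means were 1010.1 ± 40.1 and 939.9 ± 27.9 CPM (SD, n = 4 each), and the log2 fold change was -0.10 (standard error 0.03). RPSA has 72 named processed copies in the genome, whose counts came to 0.803% of its own.

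RPS21 (ENSG00000171858, chr20:62387103-62388520) had the largest change of the platform, from 483, 502, 469 and 530.3 CPM with control siRNA to 469, 468, 367 and 362 CPM with A20 siRNA. Replicates 1 and 2 of A20 siRNA lay at the lower edge of the controls and replicates 3 and 4 well beneath them. Its log2 fold change was -0.25 (standard error 0.06), and it did not pass the threshold. RPS27, RPS3A, RPS13, RPS14 and RPS26 had values of -0.14, -0.13, -0.12, -0.11 and -0.06. The standard error of RPS14 was 0.03, and this gene passed the threshold at a smaller change than RPS21.

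The 8 body proteins had a median of -0.10 and held both ends of the range. RPS23, which lines the decoding center (ENSG00000186468, chr5:82273320-82278396), was at 130.4, 138, 121 and 152 CPM with control siRNA and at 124, 116, 101 and 86.3 CPM with A20 siRNA. Control replicate 3 lay below A20 siRNA replicate 1, so the groups overlapped although the A20 siRNA sample was the lower of every same-numbered pair. The means were 135 ± 12.8 and 107 ± 16.6 CPM (SD, n = 4 each). This was the most negative log2 fold change of the 28, -0.33 (standard error 0.08), and it lay between -0.41 and -0.25 with any single sample left out, and at -0.17 without A20 siRNA replicates 3 and 4.

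RPS6, the substrate of the S6 kinases downstream of mTOR (ENSG00000137154, chr9:19375715-19380236), was at 1754, 1828, 1884 and 1914 CPM with control siRNA and at 1776, 1825, 1789 and 1804 CPM with A20 siRNA. The A20 siRNA samples lay within the span of the controls, and the log2 fold change was -0.04 (standard error 0.02). RPS2, at the mRNA entry (ENSG00000140988, chr16:1962058-1964841), was at 1306, 1397, 1400.4 and 1474 CPM with control siRNA and at 1349, 1414, 1425 and 1418 CPM with A20 siRNA. It was the only gene with a positive value, 0.01 (standard error 0.03), and was lower with A20 siRNA in 1 of 4 same-numbered pairs. The sign of RPS2 turned in 5 of 23 alternatives, down to -0.03 without control replicate 1, whether or not A20 siRNA replicate 2 was left out too. Its processed copy RPS2P5 was counted at 161 ± 8.78 CPM with control siRNA and 148 ± 9.56 CPM after A20 siRNA (SD, n = 4 each). In all, the named copies of RPS2 came to 11.3% of its own counts. With copies added to their parent gene, RPS2 was at -0.01 and all 28 genes were below 0. For RPS10 and RPS3A the copies came to 4.27% and 3.87%, and for each of the others to 1.40% or less. The remaining body genes RPS7, RPS9, RPS24, RPS15A and RPS4X had values of -0.16, -0.12, -0.11, -0.09 and -0.07. Of these only RPS7 had every A20 siRNA sample below every control (3.9% of all tested genes).

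Levels within the set differed far more than any change between the groups. Per kilobase of annotated exon, RPS12 was the highest at 1131 CPM, followed by RPS4X at 694 and RPS6 at 676, and RPS10 was the lowest at 5.55. The order depended on the length used. Per kilobase of the main transcript RPS18 was the highest at 1834 CPM, and RPS10 was again the lowest at 21.9. RPS29, for example, has 9840 bases of annotated exon in all and 295 in its main transcript.

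Changes were more negative in genes with short coding sequences, and less so without A20 siRNA replicates 3 and 4. Across the 28 genes, Pearson's r of the log2 fold change with the coding length of the main transcript was 0.596 and Spearman's rho 0.527, where the points share their 8 libraries and no p-value is given. The 14 genes with the shorter coding sequences, 168 to 435 bases, had a median of -0.16, and the 14 with the longer, 438 to 885 bases, had -0.11. Without A20 siRNA replicates 3 and 4 the rho was 0.209 and these medians were -0.08 and -0.07. Without both samples numbered 4 the rho was 0.570, and the medians were -0.10 and -0.07. Set side by side by number, the rho was 0.248 and 0.217 for replicates 1 and 2 and 0.634 and 0.462 for replicates 3 and 4. The same relation was present beyond this set, with a rho of 0.429 over 47 large subunit genes, 0.606 over 31 mitochondrial small subunit genes and 0.329 over 11311 tested genes with a coding length. Other features of the 28 genes gave smaller coefficients, with a rho of 0.287 for log2 CPM, 0.231 for the number of copies, 0.131 for log2 exonic length and 0.0662 for GC content.

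**Figure D4:**
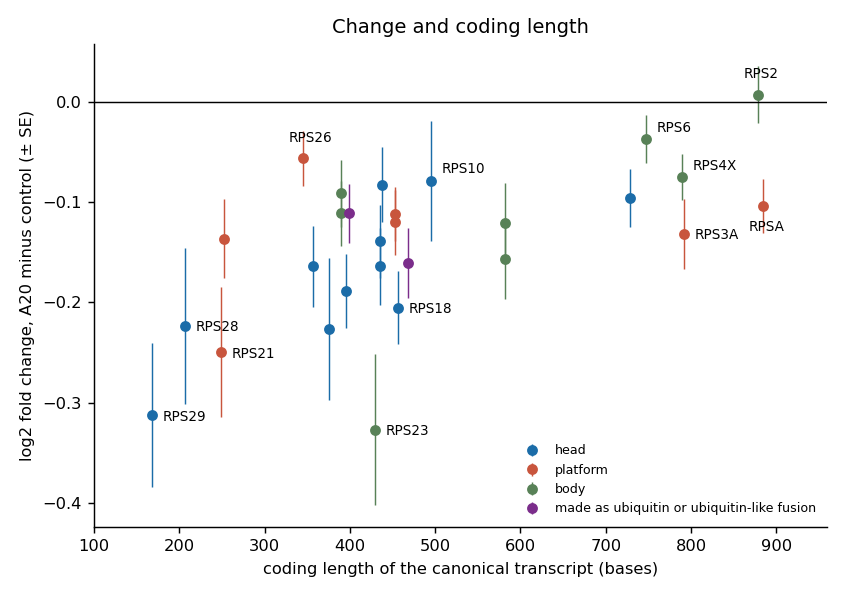
Log2 fold change (y axis, ± standard error) against the coding length of the main transcript in bases (x axis) for the 28 genes, coloured by place in the subunit. RPS29 and RPS28, with short coding sequences, lie at -0.31 and -0.22, and RPS6 and RPS2, with long ones, at -0.04 and 0.01 (Spearman's rho 0.527, or 0.209 without A20 siRNA replicates 3 and 4).

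The libraries themselves differed in such a trend. Spearman's rho between a sample's log2 CPM, relative to the mean of each gene over the samples, and exonic length over all tested genes was 0.0794, -0.164, -0.111 and -0.200 in control replicates 1 to 4, and 0.0686, -0.0816, 0.144 and 0.178 in A20 siRNA replicates 1 to 4. The share of counts on the 28 genes was highest where this trend was most negative, in control replicate 4, and lowest where it was most positive, in A20 siRNA replicate 4. Samples ordered by the trend were in the order of their shares, except that control replicate 1 and A20 siRNA replicate 1 changed places. With each sample corrected for a trend with coding length, added after seeing the data, the median of the 28 genes was -0.09 and 27 stayed below 0. In that fit 6 were lower at the threshold, with 0.574% of all tested genes. The corrections for exonic length, and for exonic length with GC content, left medians of -0.11 and -0.12. With these, 11 and 12 of the 28 were lower at the threshold, and 0.88% and 0.969% of all tested genes. What part the trend had in the differences between the groups was not tested beyond these fits.

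**Figure D5:**
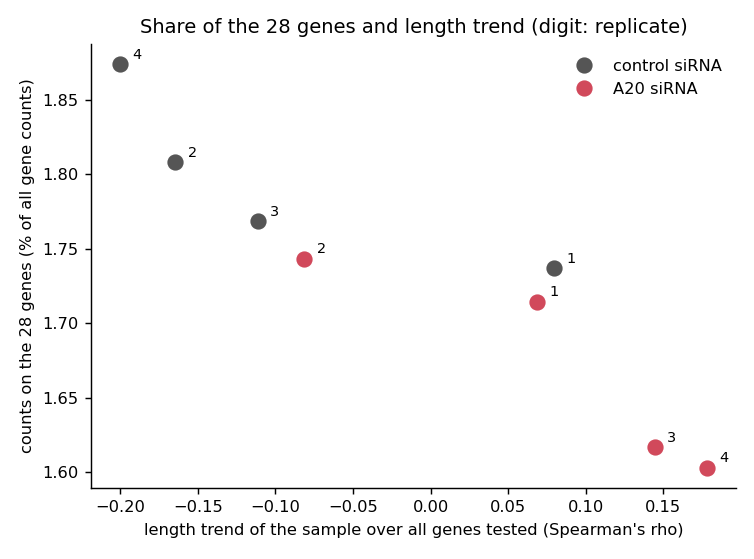
The percent of all gene counts on the 28 genes (y axis) against the trend of each sample with exonic length (x axis, Spearman's rho over all tested genes), with digits for replicate numbers. The share runs from 1.87% in control replicate 4 at a rho of -0.200 to 1.60% in A20 siRNA replicate 4 at 0.178.

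Outside the 28, the RPS27 paralog RPS27L and the scaffold protein RACK1, which binds the head, had log2 fold changes of -0.10 and -0.07. The 47 large subunit genes had a median of -0.11, with 45 below 0 and 8 lower at the threshold (RPL7, RPL11, RPL13A, RPL18, RPL23A, RPL31, RPL34 and RPL37A). Of all tested genes 48.4% were below 0 and 0.611% were lower at the threshold. The number of large subunit genes at the threshold also depended on single libraries. It was 1 without control replicate 2 (0.0517% of all tested genes lower) and 38 without control replicate 1 (3.18%). Without A20 siRNA replicates 3 and 4 it was 0 (0.0578%), and the median of the 47 genes was -0.06. The share of counts on the 47 genes was 3.77% ± 0.112 in the controls and 3.55% ± 0.120 after A20 siRNA (SD, n = 4 each).

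The counts on the 28 genes relative to those on the large subunit genes were 0.476, 0.475, 0.475 and 0.479 in control replicates 1 to 4, and 0.473, 0.473, 0.466 and 0.466 in A20 siRNA replicates 1 to 4. All A20 siRNA samples were below all controls, by a narrow margin, and no test is given because the genes were chosen on this comparison. Of the mitochondrial small subunit, whose proteins are encoded in the nucleus and made on cytosolic ribosomes, 31 of 32 genes were tested. Their median was -0.05 with 25 below 0, and 0 were at the threshold in edgeR and limma-voom and 1 in DESeq2, with 6 at an unadjusted p under 0.05 in edgeR, a share near the 16.2% of all tested genes.

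Genes that build, control or edit the small subunit had medians near 0. Of 25 biogenesis factors of the 40S, such as NOB1, which makes the last cut in its ribosomal RNA, 13 were below 0, with a median of 0.00. Of 18 genes that control TOP mRNAs, among them MTOR, LARP1 and the S6 kinases, 5 were below 0, with a median of 0.02. Of 14 genes of ubiquitin-dependent quality control on the 40S, among them ZNF598 and USP10, 6 were below 0, with a median of 0.00. None of these genes passed the adjusted threshold in edgeR, DESeq2 or limma-voom, while 2, 5 and 3 of them in that order had an unadjusted p under 0.05 in edgeR, where 16.2% of all tested genes did. The difference of these lists from the small subunit genes was not tested.

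Ubiquitin is made from RPS27A and also from UBB, which encodes it as a chain of repeats. UBB was at 363, 361, 349 and 392 CPM with control siRNA and at 346, 336, 278 and 259 CPM with A20 siRNA. All A20 siRNA samples were below all controls, with replicates 3 and 4 far below, as for RPS29 and RPS21. UBB fell from 366 ± 18.4 to 305 ± 42.8 CPM (SD, n = 4 each), by 0.26 on the log2 scale (adjusted p = 0.0460 in edgeR). That call held in 14 of 23 alternatives, with adjusted p-values between 2.73e-23 and 0.338. It was lost at a like or larger change in DESeq2 (-0.27, adjusted p = 0.216), with at least 10 counts required in every sample (-0.26, adjusted p = 0.0513) and without control replicate 2 (-0.27) or 3 (-0.29). It was lost at a smaller change without control replicate 4 (-0.23), A20 siRNA replicate 3 (-0.22) or A20 siRNA replicate 4 (-0.19). Without both samples numbered 4 the change was -0.16 (adjusted p = 0.310 in edgeR), and without A20 siRNA replicates 3 and 4 it was -0.10 (adjusted p = 0.338 in edgeR).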

How the data were processed

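RNAseq libraries were made from poly(A) RNA of 8 RKO samples. Per the study's methods and the labels, the authors trimmed single reads with Trimmomatic, aligned them with STAR to GRCh38, and deposited raw counts of uniquely mapping reads per gene, not normalized. Tool versions, the GENCODE release and the strand setting are not given in the sources used here. Unique counting leaves out reads shared with near-identical copies, so levels of genes with many copies are less certain. Groups and replicate numbers came from the labels.

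The 28 genes, the other gene lists and the tests were chosen with earlier results of these data known. Counts were analysed in R 4.3.3 with edgeR 4.0.16: filterByExpr (minimum count 10), TMM, the quasi-likelihood test without covariates, Benjamini-Hochberg adjustment over 13412 genes and a threshold of 0.05. Standard errors came from the log2 fold change and F statistic. The biological coefficient of variation was 2.73%. No pair of replicates agreed within sampling noise (chi-square per degree of freedom 1.32 to 3.67). Same-numbered samples correlated in their deviations by -0.01 to 0.0838, so the numbers were not taken to pair them. Gene symbols, positions, lengths and overlaps came from GENCODE release 44 on GRCh38, which matched 56948 of 57992 genes, and 99.3% of tested genes had a length. Copies are genes named as pseudogenes of a parent.

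Values in every sample are given for RPS27A, FAU, RPS6, RPSA, the 6 genes with the most negative and every gene with a positive log2 fold change, and the highest and lowest by CPM per kilobase of exon. Of the other lists, TNFAIP3, UBB and genes at the threshold are named, and the results of some genes are not reported here. Alternatives were RLE normalization, TMM without ribosomal protein genes, other filters, DESeq2 1.42.0, limma-voom (limma 3.58.1), the replicate block, corrections for exonic length and GC content (loess, span 0.5), counts of copies added, and samples left out. The coding length correction and the fits without A20 siRNA replicates 3 and 4, or without both samples numbered 4, were added after seeing the data. The pipeline was tested on simulated data. The study's other assays were not used here.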

Additional observations from a re-analysis of the deposited data

Results flagged for a closer look

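Of 58 sets of 4 values of a gene in a group, 2 had a sample apart from the other 3, about the 2.9 that chance gives (1 in 20 sets). For RPS2 with A20 siRNA, replicate 1 was the lowest at 1349 CPM against 1414 to 1425 in the other 3 samples, and its gap to the nearest was 0.854 of the range of the group. For TNFAIP3 with A20 siRNA, replicate 2 was the lowest at 3.01 CPM against 3.40 to 3.47, with a gap of 0.847 of the range.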

How the results depend on the processing

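Of 644 log2 fold changes of the 28 genes under the alternatives, 544 moved by less than a standard error, and all 621 of genes other than RPS2 were below 0. RPS2 changed sign in 5. The number lower at the threshold did depend on it. Against 7, it was 23 without a low-count filter, 19 with the replicate block, 11 with the exonic length correction, 12 with the correction for length and GC content, 16 with the block and both corrections, 22 without control replicate 1 and A20 siRNA replicate 2, 0 without both samples numbered 4 and 0 without A20 siRNA replicates 3 and 4. It was between 0 and 21 with a single sample left out.

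All genes lower (82) and higher (85) became 310 and 314 without the filter, 212 and 262 with the block, 228 and 225 with the block and both corrections, 483 and 614 without control replicate 1 and A20 siRNA replicate 2, 10 and 2 without both samples numbered 4, and 8 and 1 without A20 siRNA replicates 3 and 4. The exonic length correction gave 118 lower genes, and the length and GC correction gave 130. Leaving out a single sample gave 6 to 430 lower and 6 to 567 higher genes. In the lists of other genes, where 0 passed, the biogenesis factors had 0 to 1, the TOP mRNA control genes 0 to 4 and the quality control genes 0 to 1 with a single sample left out. Without control replicate 1 and A20 siRNA replicate 2 the numbers were 2, 4 and 1, and 1 quality control gene passed without the filter. The causes were not tested.

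The replicate numbers were not taken as pairs, and 4 of 8 samples correlated best with the sample of their own number, a hint from the data and not the design. TNFAIP3 stayed lower in every fit, between -0.77 and -0.67 with a single sample left out, and DESeq2 gave it -0.72 with no adjusted p. Leaving out A20 siRNA replicates 3 and 4 took the median of the 28 genes from -0.13 to -0.07. With 4 samples a group and such a weight on 2 libraries, these data limit what can be said of single genes.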
